A study of Mus musculus with 8 samples.

Results

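Serine synthesis and amino acid uptake were followed through 10 genes, namely Phgdh, Psat1, Psph, Shmt2, Mthfd2, Asns, Slc7a5, Slc3a2, Slc7a11 and Cth, chosen by name out of 55304 gene symbols of the GENCODE M21 annotation. Only part of the set makes serine or carries amino acids: Shmt2 and Mthfd2 act in mitochondrial folate metabolism, Asns makes asparagine and Cth makes cysteine. H3K27 acetylation (H3K27ac), a histone mark of active promoters and enhancers, had been profiled by ChIP-seq in mouse primary hepatocytes (MPH) from WT adult male C57Bl6 mice. MPH were kept in William's medium without serum and received 1 µM thapsigargin, which triggers endoplasmic reticulum stress (ERS) by emptying the calcium store of this organelle, or vehicle (0.04% DMSO), for 4 h. There were 3 H3K27ac libraries per treatment, from 3 independent experiments, and 1 input library per treatment. The question was where around these genes H3K27ac differed between ERS and vehicle.

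Serine is built from a glycolytic intermediate in consecutive steps by PHGDH, PSAT1 and PSPH. SHMT2 then passes its side-chain carbon to folate in mitochondria, where MTHFD2 acts on the folate-bound carbon. The transporters SLC7A5 and SLC7A11 each pair with the heavy chain SLC3A2 to bring in large neutral amino acids and cystine, respectively. During ERS or amino acid shortage, phosphorylation of eIF2α favors translation of the transcription factor ATF4, which is known to activate many of these genes with C/EBP partners through C/EBP-ATF response elements (CARE).

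The 3 region lists analysed hold positions only, each a chromosome, a start and an end. They contained 32196 regions, of which 5508 (17.1%) were H3K27ac UP, 3376 (10.5%) H3K27ac DOWN and 23312 (72.4%) unchanged after ERS. A class is the outcome of the authors' paired comparison of all 6 H3K27ac libraries, so a gene has 1 class per region. There is no value per library, no fold change, no depth and no spread between experiments, and no test was run on the classes. Direction follows the names of the lists, because the command lines given with the study, read as printed, would make it the opposite. Under these names Ddit3, Atf3 and Trib3, known to be induced by ERS, had a transcription start site (TSS) in an UP region. They were picked after their values were seen. In their list, the amino acid response regulators, 10 of 18 genes were UP (55.6%, against 21.4% of all genes with a TSS in a region). In the same list 1 was DOWN (5.56%, against 8.91%) and 7 were unchanged (against 73.7%). A region that was significant but mixed in direction belonged to no list. A TSS outside all lists could lie in such a mixed region or outside all peaks. It could also lie in part of a peak that the authors dropped for signal at input level. More of the mark per cell and more cells carrying it cannot be told apart. The cells carried H3K27ac at hepatocyte genes, since 9 of 9 hepatocyte markers found in the annotation had a TSS in a region, against 4 of 32 markers of Kupffer, stellate, endothelial and bile duct cells. Of all 55304 annotated genes, 12261 had a TSS in a region. Of the 9 hepatocyte markers, 4 were DOWN (Apoa1, Hnf4a, Serpina1a and Fgb, 44.4%, against 8.91% of genes with a TSS in a region). Of these 9 markers, 1 was UP (Asgr1, 11.1%, against 21.4%) and 4 were unchanged (against 73.7%). Of the 4 others, Cd68, Stab2 and Spp1 had an unchanged region and Sox9 an UP region, and their part in the results was not tested.

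H3K27ac UP regions covered a TSS of 7 of the 10 genes: Asns, Psat1, Psph, Shmt2, Mthfd2, Slc3a2 and Slc7a5. Of the 9 genes with a TSS in any region they made up 77.8%, whereas the share was 21.4% over all 12261 genes with a TSS in a region. A DOWN region covered a TSS of Mthfd2 alone (11.1%, against 8.91% of all genes). Unchanged regions covered a TSS of 4 genes, Psph, Slc3a2, Slc7a11 and Cth (against 73.7%), while Phgdh had no TSS in a listed region. Genes with as many distinct TSSs as these 10 (3 to 9) had shares of 22.1% UP, 7.8% DOWN and 74.6% unchanged, so the number of TSSs per gene moved the background little. With 1 principal TSS per protein-coding gene, 5 of the 8 genes that had it in a region were UP (Asns, Psat1, Shmt2, Mthfd2 and Slc3a2, against 20.8% of 8651 genes), 0 were DOWN (against 6.94%), and 3, Psph, Slc7a11 and Cth, were unchanged (against 72.3%).

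**Figure D1:**
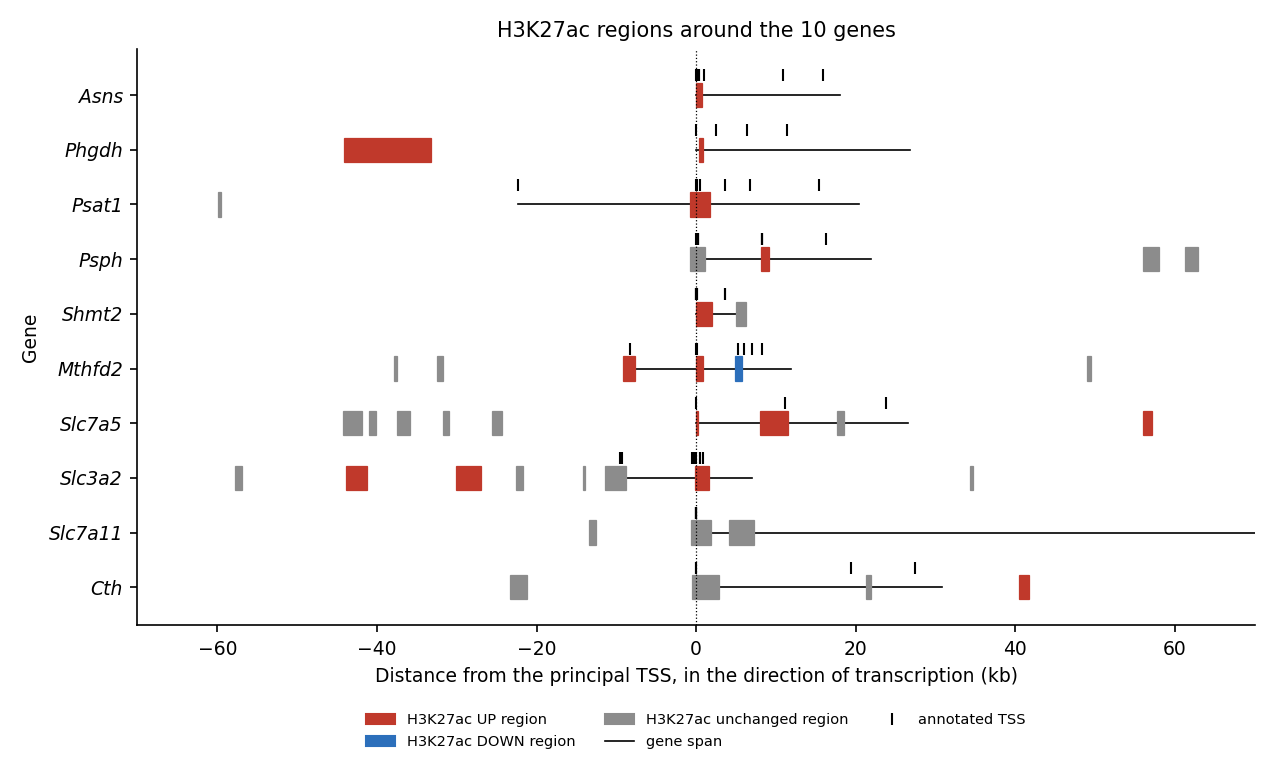
Listed H3K27ac regions (boxes, colored by class) around each gene, as distance in kb from the principal TSS in the direction of transcription. Ticks are annotated TSSs and lines the gene spans. UP boxes lie in 8 of the 10 gene bodies, the only DOWN box lies in Mthfd2, and the line of Slc7a11 runs beyond the right edge.

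At least 1 UP region lay in the body of 8 of the 10 genes, all but Slc7a11 and Cth, against 28.1% of the 15264 genes with any region in the body. DOWN regions lay in 1 gene body (against 14.9%) and unchanged regions in 6 (against 81%). In total, 19 regions lay in these gene bodies, of which 10 were UP, 1 was DOWN and 8 were unchanged. All 10 genes are on the minus strand, and no region was shared by a pair of them.

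Phgdh, Psat1 and Psph, the serine synthesis enzymes, each had an UP region in the gene body, in a different place relative to the principal TSS. Phgdh, which catalyses the committed step, had none of its 4 TSSs in a region. Its UP region of 559 bp (chr3:98339093-98339651, mm10) began 339 bp downstream of the principal TSS and lay wholly in intron 1, with a width at percentile 8.81 of all UP regions. Psat1, the aminotransferase that follows, had 3 of its 7 TSSs in an UP region of 2496 bp (chr19:15923297-15925792). This region reached from 733 bp upstream of the principal TSS, across exon 1, to 1762 bp downstream in intron 1. Psph, the phosphatase of the last step, had both classes. Its principal TSS and 3 further TSSs lay in an unchanged region of 1902 bp (chr5:129786360-129788261) that also held a TSS of Cct6a, a chaperonin subunit gene. The UP region of Psph, of 1040 bp (chr5:129778318-129779357), began 8092 bp downstream and held 3 internal TSSs, 2 of them of protein-coding transcripts, in introns 2 and 3 and exon 3. The class of Psph therefore differed between its principal and its internal TSSs.

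Each of these UP regions held 1 exact match to the CARE letters TGATGNAA, searched on both strands. The matches are shown with 10 flanking bases because they are the sequence feature these regions shared, 5′ to 3′ on the minus strand of the GRCm38.p6 (mm10) genome from RefSeq, with the CARE letters in capitals. Those of Phgdh and Psat1 are in intron 1, 764 and 1216 bp downstream of the principal TSS, and that of Psph is in intron 3, 8616 bp downstream.
Phgdh, chr3:98339209-98339236: gccttttgtcTGATGCAAgaccttggcg
Psat1, chr19:15923826-15923853: actattgctgTGATGAAAcactgtggcc
Psph, chr5:129778816-129778843: cctgaatgaaTGATGCAAtctgccacag

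Shmt2 and Mthfd2, the mitochondrial folate enzymes, both had the principal TSS close to the upstream edge of an UP region. In Shmt2, the serine hydroxymethyltransferase of mitochondria, the UP region of 1998 bp (chr10:127520481-127522478) held 5 of 7 TSSs, began 34 bp upstream of the principal TSS and ran through exon 2 into intron 2. It covered 36.9% of this short gene (5322 bp), the highest UP share of the 10 gene bodies. A second region of Shmt2, of 1192 bp at the last exon and beyond the 3′ end, was unchanged. Mthfd2, the dehydrogenase and cyclohydrolase, had 3 regions in its body. UP regions of 894 bp (chr6:83316781-83317674, from 68 bp upstream of the principal TSS) and of 1546 bp (chr6:83325209-83326754, around a TSS more than 8 kb upstream) held TSSs of protein-coding transcripts, and also TSSs of Gm43890 and Mob1a, respectively. The DOWN region of 901 bp (chr6:83311805-83312705) spanned exon 3 and parts of introns 2 and 3, and the TSS in it belonged to a retained-intron transcript. Among DOWN regions that hold a TSS its width was at percentile 3.34. Mthfd2 thus carried both directions, with UP at its protein-coding starts and DOWN inside the gene body.

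The UP region at the Shmt2 start held a pair of CARE matches on opposite strands in intron 1, whose motif starts were 22 bp apart, and that of Mthfd2 held 1 match in intron 1, 419 bp downstream of the principal TSS. Both are shown on the minus strand, with CARE letters in capitals. In the Shmt2 line the second capital run is the motif read on the other strand.
Shmt2, chr10:127521925-127521974: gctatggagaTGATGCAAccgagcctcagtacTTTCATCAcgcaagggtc
Mthfd2, chr6:83317170-83317197: tgctgcagtcTGATGAAAtctgtgagcc

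Asns, which encodes asparagine synthetase, had a single region in its body and within 50 kb of its TSSs, and this region was UP. It measured 768 bp (chr6:7692538-7693305), at percentile 6.16 of UP regions that hold a TSS, and covered 4 of 7 TSSs. It ran from 51 bp upstream of the principal TSS through exon 1, which is untranslated, into intron 1. A CARE match lay in exon 1 of the principal GENCODE transcript, 22 bp downstream of its TSS. The RefSeq TSS was placed 45 bp further downstream, so that the same match began 23 bp upstream of it. The match is shown because it is the only one inside both an UP region and a 300 bp promoter of the set, on the minus strand with CARE letters in capitals.
Asns, chr6:7693215-7693242: cccagccacaTGATGAAActtcccgcac

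The transporters split by class. Slc7a5, which encodes LAT1, had 2 UP regions and 1 unchanged region in its body, although its principal TSS was in no region. The first UP region began 47 bp downstream of the principal TSS, lay wholly in exon 1 and measured 216 bp (chr8:121907432-121907647), at percentile 0.272 of all UP regions. The second was the widest region in the 10 gene bodies, with 3558 bp (chr8:121896148-121899705), from 7989 to 11546 bp downstream, across exon 2 and parts of introns 1 and 2. It held the TSS of 1 noncoding transcript, which is why Slc7a5 counted as UP at a TSS. An unchanged region of 862 bp lay in intron 2. Slc3a2, the heavy chain that both exchangers need, had its principal TSS and 3 further TSSs in an UP region of 1652 bp (chr19:8712319-8713970) that began 91 bp upstream. Another 3 TSSs, between 91 bp and 1 kb upstream of the principal one, were in no listed region. The farthest 2, more than 9 kb upstream, lay in an unchanged region of 2668 bp (chr19:8722629-8725296) together with the TSSs of the small nucleolar RNA host gene Snhg1. Slc7a11, which encodes the cystine and glutamate exchanger xCT, had no UP or DOWN region within 50 kb. Of its 5 annotated transcripts, 4 started in an unchanged region of 2510 bp (chr3:50441791-50444300), and a second unchanged region of 3208 bp spanned exon 2. Slc7a11 is 551089 bp long, and regions of any class covered 0.913% of it.

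In gene-body regions, CARE matches were found in an UP region of Slc7a5 and in unchanged regions of Slc7a11, and none in those of Slc3a2. The wide UP region of Slc7a5 held 2 in intron 1, and the unchanged region at the Slc7a11 start held a pair on opposite strands upstream of the principal TSS, with motif starts 19 bp apart. The first Slc7a5 line is on the minus strand and the second on the plus strand, the Slc7a11 line is on the minus strand, and capitals mark CARE letters. From the motif start, the first Slc7a5 match and that of Psph above were identical over 15 bases.
Slc7a5, chr8:121898585-121898612: atctggctagTGATGCAAtctgccagcc
Slc7a5, chr8:121898246-121898273: tagctccggcTGATGTAAcaccggctgt
Slc7a11, chr3:50443643-50443689: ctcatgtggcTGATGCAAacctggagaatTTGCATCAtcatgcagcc

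Cth, the cystathionine gamma-lyase that yields cysteine in transsulfuration, was unchanged at its principal TSS. The region there was the widest unchanged one in the set, with 3310 bp (chr3:157922245-157925554), and also held a TSS of 1810013D15Rik. It contained 3 CARE matches, all in intron 1. A further unchanged region of 660 bp lay in intron 10. The only UP region of the Cth window, of 1196 bp (chr3:157883388-157884583), lay beyond the 3′ end of the gene, 13129 bp from the nearest annotated Cth TSS and 40494 bp from the principal one.

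**Figure D2:**
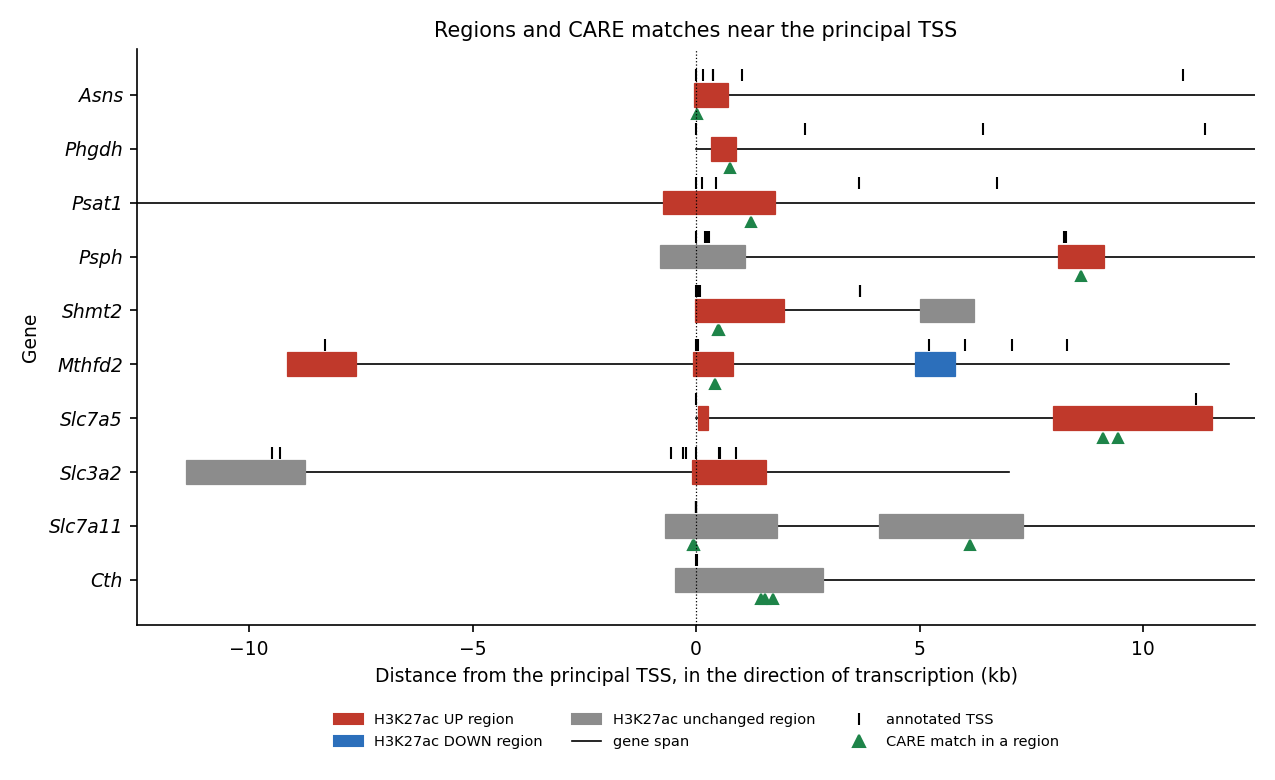
The same genes close to the principal TSS, with boxes for listed H3K27ac regions by class, ticks for annotated TSSs and green triangles for CARE matches inside regions (x axis in kb, positive in the direction of transcription). UP boxes of Asns, Shmt2, Mthfd2 and Slc3a2 begin 34 to 91 bp upstream of the principal TSS and extend downstream, those of Phgdh and Slc7a5 begin 339 and 47 bp downstream of it.

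UP regions at these principal TSSs were placed mainly downstream. In 4 of the 5 genes (Shmt2 34 bp, Asns 51 bp, Mthfd2 68 bp, Slc3a2 91 bp) the region reached at most 100 bp upstream of the principal TSS, against 8.74% of the 1797 protein-coding genes with the principal TSS in an UP region and 11.8% of the 6254 in an unchanged region. Between 92.4% (Mthfd2) and 98.3% (Shmt2) of the width of these 4 regions lay downstream, while the median over all UP genes was 63.0%. Psat1 differed from the other UP genes, with 733 bp upstream, close to the median of 762 bp. The unchanged genes reached 477 bp (Cth), 689 bp (Slc7a11) and 812 bp (Psph) upstream, on either side of the median of 604 bp for that class. With RefSeq starts, Asns (96 bp), Slc3a2 (73 bp), Mthfd2 (70 bp) and Shmt2 (34 bp) stayed within 100 bp. The cut of 100 bp lies just above these values, and no other cut is given for the set. The authors tested bins of 150 bp, which are wider than these distances. Phgdh and Slc7a5 had the region wholly downstream. Over all protein-coding genes, 925 had the principal TSS in no region and a region beginning within 500 bp downstream, and it was UP in 13.2%, DOWN in 2.05% and unchanged in 84.8% of them.

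**Figure D3:**
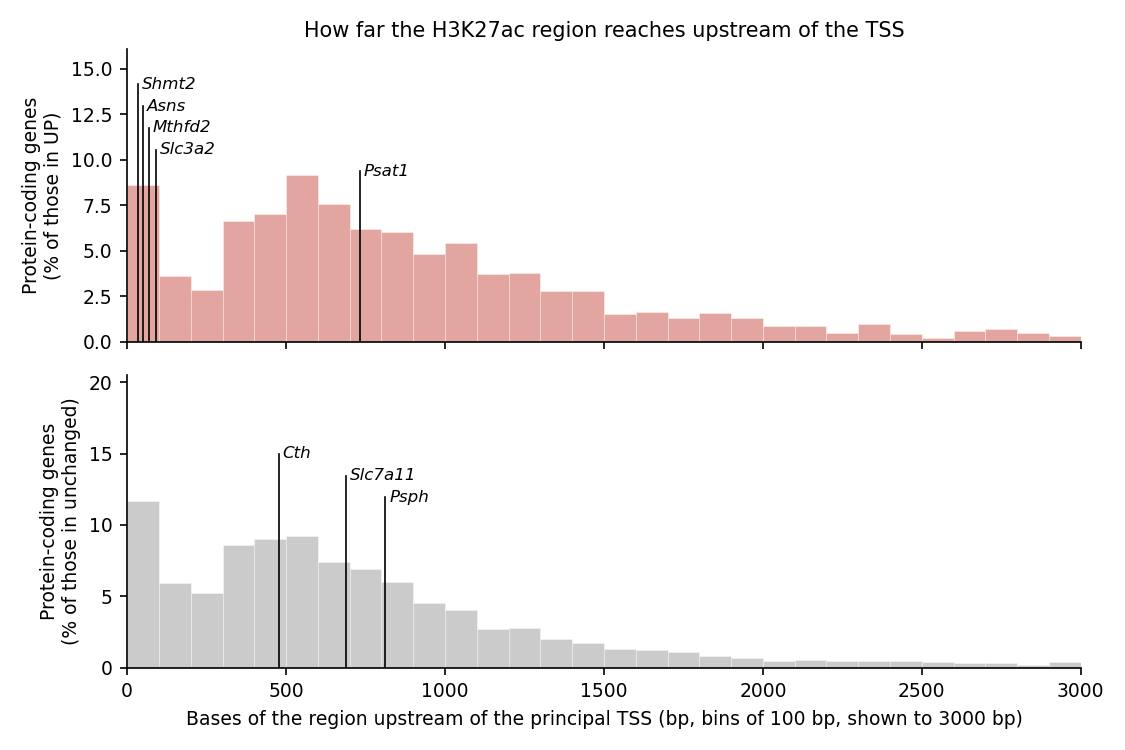
Share of protein-coding genes (y axis, % of the class) by how many bp of the region lie upstream of the principal TSS (x axis, bins of 100 bp, shown to 3000 bp), for UP regions (top) and unchanged regions (bottom). Black lines mark the genes of the set. Shmt2, Asns, Mthfd2 and Slc3a2 stand in the first bin and Psat1 at 733 bp, while Cth, Slc7a11 and Psph stand between 477 and 812 bp.

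The UP regions were not wide. The 8 UP regions that held a TSS of the set ranged from 768 to 3558 bp with a median of 1599 bp, against a median of 2136 bp over the 2047 UP regions that hold any TSS. Their percentiles among those ran from 6.16 (Asns) to 74.1 (Slc7a5). The 4 unchanged regions that held a TSS measured 1902 to 3310 bp, at percentiles 62.3 (Psph) to 84.8 (Cth) of their class, and their median was 2589 bp, against 1530 bp over all unchanged regions with a TSS.

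Within 50 kb of the TSSs there were 41 regions, of which 15 (36.6%) were UP, against 17.1% of all regions, 1 (2.44%) was DOWN, against 10.5%, and 25 were unchanged. The low DOWN share depended on the window, since within 100 kb 8 of 74 regions were DOWN (10.8%) and 20 were UP (27%). Within 50 kb, all genes but Slc7a11 had an UP region (9 of 10, against 42.6% of 32683 genes), 1 had a DOWN region (against 26.2%) and 8 had an unchanged region (against 92.5%). Many of these 32683 genes had no region at a TSS. The 12261 genes with a TSS in a region had a mean of 0.862 UP regions within 50 kb, where the 10 genes had 15 in total. Outside the gene bodies, 5 of 22 regions (22.7%) were UP and 0 were DOWN. The widest of the 5 measured 10831 bp (chr3:98373246-98384076), at percentile 98.5 of UP regions, and lay 33256 bp upstream of the Phgdh start at Zfp697, a zinc finger gene. A pair upstream of Slc3a2 lay at other genes, with 3119 bp (chr19:8740810-8743928) at Stx5a, a Golgi syntaxin gene, and 2551 bp (chr19:8755146-8757696) at Nxf1, an mRNA export factor gene. The others were the region beyond the 3′ end of Cth and one of 1183 bp (chr8:121850561-121851743) downstream of Slc7a5, whose nearest protein-coding TSS was that of Klhdc4, 20992 bp away. The lists do not tell which gene a region acts on, and 3 of these 5 regions held a TSS of another gene.

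CARE matches stood in 7 of the 10 UP regions of the gene bodies (70%), against 35.6% of all UP regions and 30.4% of the 4599 UP regions within the same span of widths (216 to 3558 bp). The UP regions without a match were the narrow one of Slc7a5, that of Slc3a2 and the far upstream one of Mthfd2. Per kb, the 10 regions held 0.611 matches, against 0.215 in all UP regions and 0.166 in UP regions that hold a TSS. Unchanged regions of the gene bodies held a match in 3 of 8 cases (37.5%) and 0.368 per kb, against 18.8% and 0.148 per kb over all unchanged regions. Both classes thus held matches, with 6 of the 15 in unchanged regions of Slc7a11 and Cth. At the N position, 6 of the 15 had C, 5 had A and 4 had T. In 300 bp promoters (250 bp before to 50 bp after the principal TSS), Asns and Slc7a11 held a match, 2 of 10, against 3.78% of 21829 protein-coding promoters, and within 500 bp on each side Shmt2 and Mthfd2 did too, 4 of 10, against 10.8%.

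**Figure D4:**
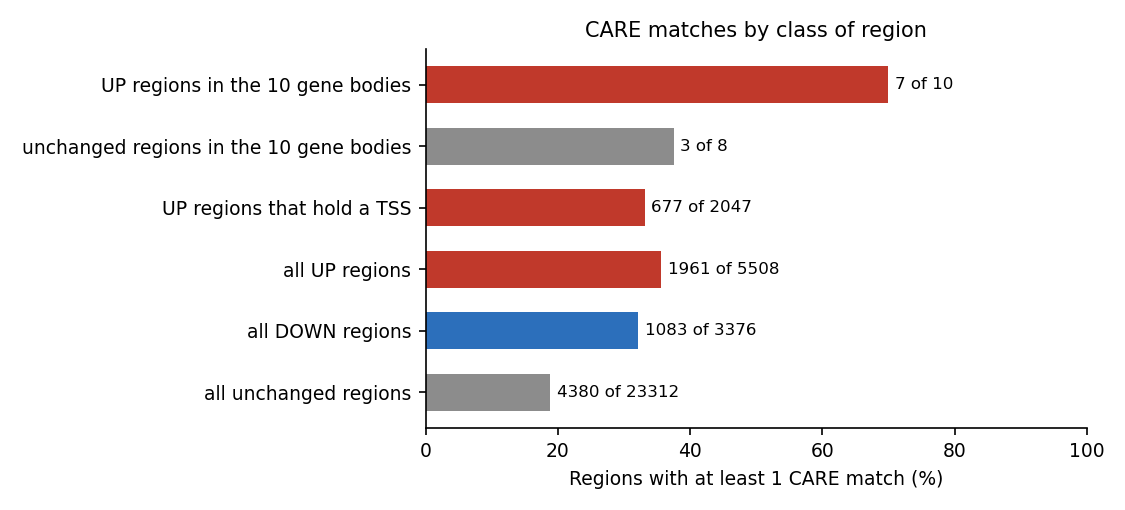
Share of regions with at least 1 exact match to TGATGNAA on either strand (x axis, %), by class and by whether the region lies in the body of one of the 10 genes. Bars start at 0 and carry their counts, and the 10 UP regions of the gene bodies stand at 70% against 35.6% of all UP regions.

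Other motifs of stress-responsive factors were counted in the same windows. The antioxidant response element (TGACNNNGC) was in the promoters of Asns and Phgdh (2 of 10, against 12.7%) and in 6 of the 10 UP regions of the gene bodies (60.0%, against 54.4% of all UP regions). The E-box (CACGTG) was in the promoters of Slc7a5 and Cth (2 of 10, against 7.75%) and in 3 of the 10 UP regions (30.0%, against 30.0%). AP-1 letters (TGANTCA) were in none of the 10 promoters (against 6.66%) and in 3 of the 10 UP regions (30.0%, against 63.2%). The unfolded protein response element UPRE (TGACGTGG) was in none of the promoters (against 0.715%) and in 1 UP region, that of Shmt2 (10%, against 4.39%). Matches to the antioxidant letters can overlap AP-1 or UPRE matches, whereas 0 of the 24 CARE matches in these windows overlapped another motif match.

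Related pathways held both UP and DOWN genes. Over 5 lists of related genes, 32 of the 83 genes with a TSS in a region were UP (38.6%) and 17 were DOWN (20.5%), where the background was 21.4% and 8.91%. Regulators of the amino acid response were mostly UP, 10 of 18 (55.6%), with 1 DOWN. The widest changed regions at their TSSs were UP at Cebpb (8393 bp), a C/EBP partner of ATF4, Eif4ebp1 (7796 bp), which restrains cap-dependent translation, and Ppp1r15b (6626 bp), which directs eIF2α dephosphorylation, and DOWN at Nfe2l2 (10932 bp), the antioxidant regulator NRF2. Other amino acid transporters were UP in 8 of 17 (47.1%) and DOWN in 4 (23.5%). A DOWN region of 23467 bp was at Slc38a4 and one of 5927 bp at Slc38a3, both sodium-coupled transporters of hepatocytes. Another of 8107 bp was at Slc7a2, a cationic amino acid transporter, whereas the glutamate transporter gene Slc1a2 had an UP region of 8540 bp. Slc38a4 and Slc7a2 also had a TSS in an unchanged region.

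Serine and folate genes outside the set were UP in 6 of 22 cases (27.3%, against 21.4% of all genes with a TSS in a region). They were DOWN in 5 (22.7%, against 8.91%) and unchanged in 12, where a gene can count in more than 1 class. DOWN regions that hold a TSS were wider in general (median 3828.5 bp, against 2136 bp for UP), so they come first more easily in a ranking by width. The 4 widest changed regions of these genes were all DOWN. They were at Sfxn1 (9014 bp), the mitochondrial serine carrier, Gcat (8252 bp), of threonine breakdown to glycine, Shmt1 (3671 bp), the cytosolic counterpart of Shmt2, and Sdsl (3242 bp), a serine dehydratase homolog. Sdsl also had a TSS in an unchanged region. Methionine, cysteine and glutathione genes were UP in 4 of 16 (25%, against 21.4%), DOWN in 4 (25%, against 8.91%) and unchanged in 9. The glutathione synthesis genes Gclc (18782 bp) and Gss (9387 bp) and the cysteine dioxygenase gene Cdo1 (7129 bp) had DOWN regions. Gclc also had a TSS in an unchanged region. Ahcy, which hydrolyses S-adenosylhomocysteine, had an UP region of 6807 bp. Of the asparagine, glutamine and proline genes, 4 of 10 were UP (40.0%, against 21.4%), 3 DOWN (30.0%, against 8.91%) and 5 unchanged. The aminotransferase genes Gpt2 (12407 bp) and Gpt (3595 bp) and the proline oxidase gene Prodh (2878 bp) had DOWN regions. Got2 had an UP region of 5320 bp, Gpt2 was also UP at another TSS, and Prodh also had a TSS in an unchanged region.

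**Figure D5:**
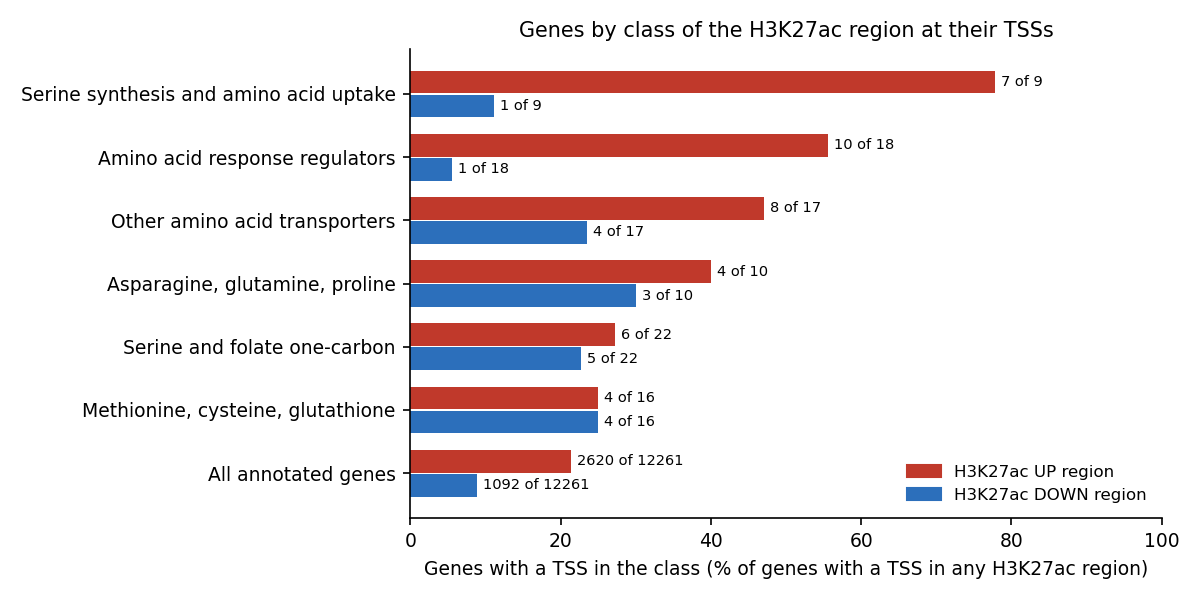
Share of genes with a TSS in an H3K27ac UP (red) or DOWN (blue) region, of the genes of each list with a TSS in any region (x axis, %, bars from 0, counts beside them). The 10 genes of serine synthesis and amino acid uptake stand at 7 of 9 UP and 1 of 9 DOWN, the serine and folate genes outside the set at 6 and 5 of 22, and all annotated genes at 21.4% and 8.91%. A gene with TSSs in both classes counts in both bars.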

How the data were processed

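The authors mapped reads to mm10 (Bowtie, per the labels), removed duplicates and blacklisted reads, and called broad MACS2 peaks on all H3K27ac libraries pooled. They tested bins of 150 bp with csaw 1.6.1 in a paired fit, after dropping bins at input level and loess normalization, and merged bins within a peak. Merged regions at an FDR of at most 0.05 were UP where UP bins numbered 2 times the DOWN bins or more, DOWN where this quotient was 0.5 or less, and otherwise in no list. A higher FDR made them unchanged. The 3 deposited region lists used here hold region starts and ends in bp, the only other values being chromosomes, with no counts or scores. In the command lines given with the study, thapsigargin is the reference level. Read as printed, a positive coefficient would mean more H3K27ac in vehicle, and UP and DOWN would then be exchanged throughout. Direction was taken from the names of the lists and the study's description of them. The paper reports that genes linked to UP regions were enriched in genes induced by ERS. It links genes repressed by ERS more strongly to DOWN regions.

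Starts were made 1-based and joined to the starts of 141730 GENCODE M21 transcripts, a gene having a class when a start lay in a region of it. The principal TSS is the APPRIS-preferred protein-coding transcript, and distances count from it as 0. Percentiles are ranks of width within a class. The RefSeq promoter table matched 8 of the 10 genes, all but Slc7a5 and Cth. List symbols not found in the annotation were Pycr3 and Tf. Genes outside the set were named when a TSS lay in a region holding a TSS of the set, when theirs was the protein-coding TSS nearest to a changed region within 50 kb, or when among the 4 widest changed regions of a list, while the markers of hepatocytes and other liver cells, and Ddit3, Atf3 and Trib3, were named after their values were seen. The 10 genes and all lists were chosen with earlier results of these data known. Scripts ran in Python 3.11.15 with numpy 2.4.6, pandas 2.3.3 and matplotlib 3.10.9 and were tested on simulated regions. Alternatives are given below.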

Additional observations from a re-analysis of the deposited data

How the results depend on the processing

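Of 70 recomputed counts and widths, 45 stayed within 1.5 times the value reported and 25 did not. The number of genes UP at a TSS was 3 instead of 7 when regions were required to span 500 bp both before and after a TSS, a call that Asns, Shmt2, Psph and Slc7a5 lost. These were 3 of the 6 genes that still had such a region, against 24.3% of all genes. The DOWN call of Mthfd2 became 0 under that setting, with protein-coding transcripts only and with 1 principal TSS per gene. It also became 0 with regions of at least 1 kb, with the region centered nearest to the principal TSS, and with RefSeq starts. RefSeq starts, an alternative chosen after seeing the data, gave 5 UP genes instead of 7 and 2 unchanged genes instead of 4. Slc7a5, UP before, and Cth, unchanged before, were absent from the RefSeq promoters used. They were not recomputed and drop out of these counts. In the 5 other lists, unchanged genes numbered 25 with 500 bp spanned both ways, and 71, with 26 DOWN, when a TSS within 10 kb of a region counted. Under the 10 kb setting, 14.1% of the 21015 genes with a region were DOWN. Regions around the 10 genes included 8 DOWN within 100 kb and 0 DOWN of at least 1 kb. Unchanged regions numbered 9 within 10 kb, 14 within 25 kb, 46 within 100 kb, 9 with a gene of the set nearest and 12 of at least 1 kb. In gene bodies, leaving out regions with a TSS gave 2 UP, 0 DOWN and 4 unchanged, and a width of at least 1 kb gave 6 UP and 0 DOWN. CARE matches were held by 4 genes within 500 bp of the TSS and by 8 in whole regions with a TSS, instead of 2. Both searches covered more bases than the 300 bp promoters. Of the 13 regions with a TSS of the set, 8 (61.5%) held a match. The share was 33.1% of all UP and 17.3% of all unchanged regions with a TSS. No paired analysis was possible because the lists used here give 1 class per region over all libraries, and no replicate could be left out either. The lists give no depth, so a difference in an unchanged region may have been too small to detect.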
